A study of Mus musculus with 6 samples.

Results

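The 6 actin genes Acta1, Acta2, Actb, Actc1, Actg1 and Actg2 and the 4 tropomyosin genes Tpm1, Tpm2, Tpm3 and Tpm4 were taken by name from the gene table, so that the set holds 10 of 18951 genes. All 10 had reads in every library and were tested. The libraries labelled si-Rbm22 (n = 3) came from primary heart muscle cells given an siRNA against Rbm22, a zinc finger RNA-binding protein of the spliceosome, and those labelled si-Control (n = 3) from cells given a scrambled siRNA. Both groups are described as cells from C57BL/6 hearts at postnatal day 1 with a purity above 97.5% by cardiac troponin T staining, collected 48 h after transfection. The labels do not say whether the 3 replicates of a group came from separate isolations, and p-values speak only of the spread among these cultures, which may be technical.

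Actin monomers polymerise into the thin filament of the sarcomere and into the filaments of the cytoskeleton, and tropomyosin dimers lie along them as a rod that controls the access of myosin and of other binding proteins. Mammals have an actin gene for heart muscle (Actc1), one for skeletal muscle (Acta1), one each for vascular and enteric smooth muscle (Acta2 and Actg2) and a pair for the cytoplasm (Actb and Actg1). The neonatal ventricle is known for Actc1 as its main sarcomeric actin, with Acta1 as a lesser partner, and for Tpm1 as its main tropomyosin. Each tropomyosin gene makes both muscle and cytoskeletal products by alternative promoters and exons, except Tpm4, which is mainly cytoskeletal in the mouse, and read counts per gene do not tell these products apart.

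Total counts lay between 34269042 and 37344860 reads per library. Levels are given as TMM-scaled CPM, read counts relative to a library total scaled for composition. The siRNA target Rbm22 was lower in si-Rbm22, at 13.5 ± 0.892 CPM, against 23.2 ± 1.79 CPM in si-Control (SD, n = 3 each). Markers of cardiomyocytes went against the label of the second group. Of 11 cardiomyocyte markers, 11 had a higher level in si-Rbm22, with a summed level of 23320 to 36790 CPM, against 46.6 to 52.6 CPM in the libraries labelled si-Control, where Nppa, Mybpc3, Myl2, Myl3, Myl7 and Pln had no reads at all. Skeletal myogenic markers had the opposite pattern, with 10 of 10 at a lower level in si-Rbm22. Their sum was 1.49 to 4.36 CPM in si-Rbm22, where Myod1, Myf5, Cdh15 and Cacng1 had no reads, against 295.7 to 320.8 CPM in the libraries labelled si-Control. Endothelial (8), epicardial (7) and macrophage (7) markers all had a higher level in si-Rbm22, with sums of 391.5 to 436.6, 2077 to 2267 and 116.6 to 151.2 CPM there and of at most 53.7 CPM in si-Control. The part of these differences in cell content in every result below was not tested, and in bulk RNA fewer cells of a type cannot be told apart from less RNA per cell.

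Of the 10 genes, 3 rose and 6 fell in si-Rbm22 by edgeR's quasi-likelihood test at a Benjamini-Hochberg adjusted p under 0.05, and Actb did not pass. Among all 14621 genes tested, 82% passed, 43.1% as higher and 38.9% as lower, so 9 calls in 10 genes is close to the background. A change of at least 2-fold was called for 5 of the 10 genes, Actc1, Tpm1, Acta1, Actg2 and Tpm2, and for 43.1% of all genes. The groups did not overlap for any of the 10 genes, nor for 84.2% of all genes. The median log2 fold change (si-Rbm22 over si-Control, throughout) was −0.27 over the 10 genes and 0.05 over all genes tested, while the median absolute log2 change was 1.17 over the 10 genes and 0.82 over all.

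**Figure D1:**
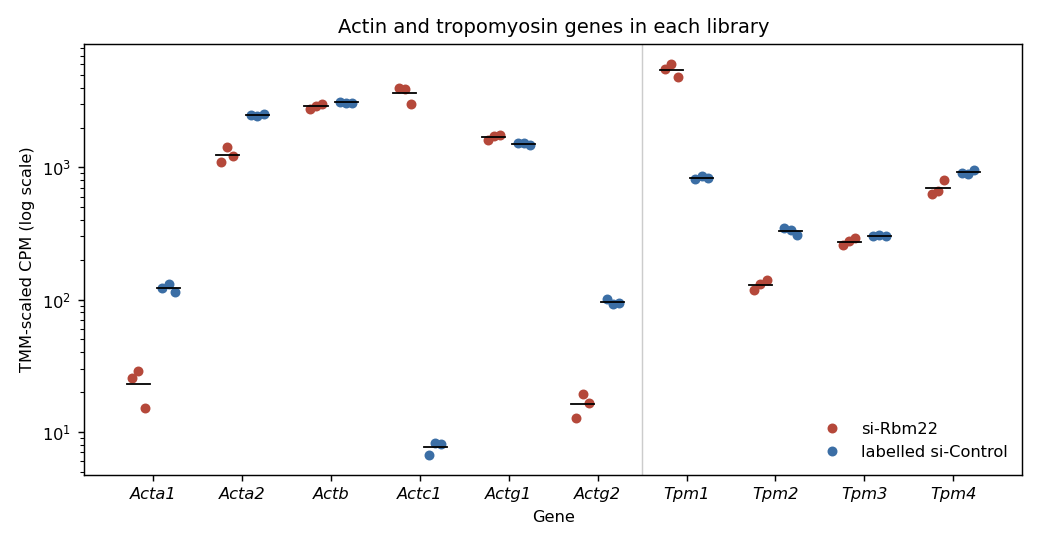
TMM-scaled CPM (log axis) of each actin and tropomyosin gene, with a point for each library and a black line at the mean of 3 libraries; si-Rbm22 in red, libraries labelled si-Control in blue. Actc1 spans the plot, from 3026 to 3997 CPM in si-Rbm22 against 6.65 to 8.19 CPM in the libraries labelled si-Control, while Actb and Tpm3 lie nearly level.

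Actc1, the cardiac alpha actin (ENSMUSG00000068614; GRCm38 chromosome 2, 114047282 to 114053548, minus strand), rose more than any other of the 10 genes. It had 3997, 3905 and 3026 CPM in si-Rbm22 and 6.65, 8.19 and 8.13 CPM in the libraries labelled si-Control. Every si-Rbm22 library was far above every library of the other group, and replicate 3 was the lowest of the si-Rbm22 libraries. The means were 3643 ± 535.9 CPM in si-Rbm22 and 7.65 ± 0.870 CPM in si-Control (SD, n = 3 each), a log2 fold change of 8.89 (SE 0.151, edgeR adjusted p = 1.48e-12). The low level still rested on 241, 297 and 282 reads, so Actc1 was detected in each library labelled si-Control, unlike 6 of the 11 cardiomyocyte markers.

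Acta1, the skeletal alpha actin that the fetal and the stressed heart also use (ENSMUSG00000031972; chromosome 8, 123891769 to 123894751, minus strand), moved the other way. It had 25.5, 28.7 and 15.0 CPM in si-Rbm22 and 123.1, 131.9 and 113.7 CPM in the libraries labelled si-Control. The highest si-Rbm22 library lay well below the lowest si-Control library, and the spread was wider in si-Rbm22, where the coefficient of variation was 31.0% against 7.38% in si-Control. Acta1 thus fell by 2.41 on the log2 scale (SE 0.232, edgeR adjusted p = 9.18e-05), to 23.1 ± 7.15 CPM in si-Rbm22 against 122.9 ± 9.08 CPM in si-Control (SD, n = 3 each). Skeletal myogenic markers were also lower in si-Rbm22, as given above, and a link was not tested.

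The smooth muscle actins also fell. Acta2, the vascular smooth muscle alpha actin, which myofibroblasts and embryonic heart muscle also make (ENSMUSG00000035783; chromosome 19, 34241090 to 34255590, minus strand), had 1099, 1418 and 1225 CPM in si-Rbm22 and 2466, 2454 and 2542 CPM in the libraries labelled si-Control. Every si-Rbm22 library was thus below every si-Control library, and the log2 fold change was −1.0 (SE 0.080, edgeR adjusted p = 9.86e-08). Actg2, the enteric smooth muscle gamma actin (ENSMUSG00000059430; chromosome 6, 83512905 to 83536265, minus strand), had 12.8, 19.4 and 16.5 CPM in si-Rbm22 and 100.8, 92.0 and 93.9 CPM in si-Control. It fell by 2.56 (SE 0.124, edgeR adjusted p = 8.26e-09). Of 9 smooth muscle and pericyte markers, 6 had a higher and 3 a lower level in si-Rbm22, with a sum of 1260 to 1481 CPM against 993.3 to 1062 CPM in si-Control. Fibroblast markers were 3 higher and 6 lower of 9, with a sum of 5696 to 5893 CPM in si-Rbm22 against 21410 to 23250 CPM in si-Control.

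The cytoplasmic actins differed little. Actb, the beta actin often taken as a loading control (ENSMUSG00000029580; chromosome 5, 142903115 to 142906754, minus strand), had 2739, 2931 and 2996 CPM in si-Rbm22 and 3143, 3090 and 3048 CPM in the libraries labelled si-Control. All 3 si-Rbm22 libraries were below all 3 others, but by little, and the log2 fold change of −0.10 (SE 0.056) did not pass (edgeR adjusted p = 0.118); it passed only without si-Rbm22 replicate 3 (log2 fold change −0.14, edgeR adjusted p = 0.0167). Actg1, the gamma cytoplasmic actin (ENSMUSG00000062825; chromosome 11, 120345690 to 120348542, minus strand), had 1619, 1740 and 1757 CPM in si-Rbm22 and 1528, 1529 and 1468 CPM in si-Control. It rose by 0.18 (SE 0.056, edgeR adjusted p = 0.0100), a call that was lost without si-Control replicate 2 (edgeR adjusted p = 0.0515) or replicate 3 (0.0801). Since one was slightly lower and the other slightly higher, the sum of Actb and Actg1 was 4594 ± 208.9 CPM in si-Rbm22 and 4602 ± 78.9 CPM in si-Control (SD, n = 3 each), a difference smaller than either spread.

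**Figure D2:**
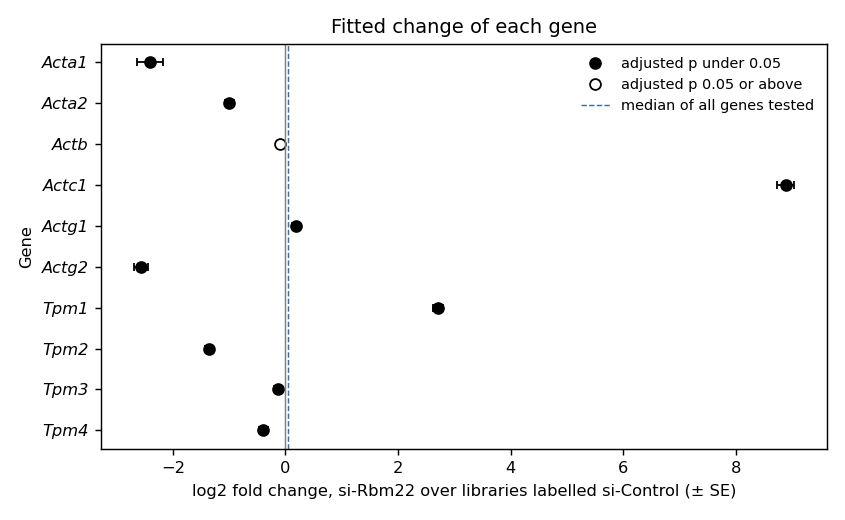
Log2 fold change of each gene, si-Rbm22 over libraries labelled si-Control, with its SE as a bar; filled points passed at an adjusted p under 0.05 and the dashed line is the median of all genes tested. Actc1 at 8.89 and Tpm1 at 2.71 lie to the right, Acta1, Actg2, Tpm2 and Acta2 between −2.56 and −1.0, and Actb, Actg1, Tpm3 and Tpm4 near 0.

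Tpm1, the alpha tropomyosin gene and the source of the main tropomyosin of heart muscle (ENSMUSG00000032366; chromosome 9, 67022590 to 67049406, minus strand), was the only tropomyosin gene that rose. It had 5503, 6092 and 4790 CPM in si-Rbm22 and 820.6, 852.8 and 836.5 CPM in the libraries labelled si-Control. The si-Rbm22 libraries were far above the others and differed more among themselves. The means were 5462 ± 651.6 CPM in si-Rbm22 and 836.6 ± 16.1 CPM in si-Control (SD, n = 3 each), a 6.53-fold level (log2 fold change 2.71, SE 0.082, edgeR adjusted p = 2.42e-12). Unlike Actc1, Tpm1 was abundant in the libraries labelled si-Control as well.

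Tpm2, the beta tropomyosin of skeletal and smooth muscle (ENSMUSG00000028464; chromosome 4, 43514711 to 43523765, minus strand), had 118.4, 130.2 and 139.9 CPM in si-Rbm22 and 346.3, 333.4 and 309.3 CPM in the libraries labelled si-Control. It fell by 1.35 on the log2 scale (SE 0.070, edgeR adjusted p = 3.12e-10). Both Tpm2 and Acta1 were lower, as were the skeletal myogenic markers and the summed level of the fibroblast markers (3 higher and 6 lower of 9). The summed level of the smooth muscle and pericyte markers was higher, at 1260 to 1481 CPM in si-Rbm22 against 993.3 to 1062 CPM in si-Control (6 higher and 3 lower of 9). A link to any of these lists was not tested. Tpm4, the cytoskeletal tropomyosin (ENSMUSG00000031799; chromosome 8, 72134975 to 72153142, plus strand), had 633.2, 658.8 and 802.0 CPM in si-Rbm22 and 901.6, 892.5 and 956.0 CPM in si-Control, with si-Rbm22 replicate 3 nearest to the other group. It fell by 0.39 (SE 0.081, edgeR adjusted p = 0.000618). Tpm3, which makes a slow muscle product and cytoskeletal ones (ENSMUSG00000027940; chromosome 3, 90072649 to 90100902, plus strand), had 256.8, 275.5 and 291.1 CPM in si-Rbm22 and 300.5, 306.2 and 300.5 CPM in si-Control. Its fall of 0.14 (SE 0.059, edgeR adjusted p = 0.0399) lay at the threshold. The call was lost without si-Rbm22 replicate 1 or 2 and without any library labelled si-Control (edgeR adjusted p = 0.0537 to 0.122), under RLE size factors (0.0654) and with genes of at least 10 CPM in 3 libraries (0.129).

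Dividing by the length of each gene's merged exons allowed the genes to be ranked within a library. Per kilobase, Actc1 was the leading actin in si-Rbm22 at 2251 ± 331.2 CPM per kilobase, ahead of Actb at 1078 ± 49.96, Actg1 at 641.5 ± 28.4 and Acta2 at 567.9 ± 73.1, with Acta1 at 15.0 ± 4.66 and Actg2 at 10.4 ± 2.15 far behind (SD, n = 3). The ranges of Acta1 and Actg2 over libraries overlapped, here and with the longest transcript as length. Those of Actg1 and Acta2 overlapped only with merged exons: with the longest transcript Actg1 held 15.0% to 17.5% of the actin sum in si-Rbm22 and Acta2 9.76% to 12.0%. In the libraries labelled si-Control the order began with Actb at 1155 ± 17.8 and Acta2 at 1133 ± 21.8 CPM per kilobase, whose ranges overlapped with merged exons but not with the longest transcript (42.4% to 43.1% of the actin sum for Actb, 31.9% to 33.4% for Acta2). Actg1 followed at 567.5 ± 13.2, Acta1 at 80.0 ± 5.91 and Actg2 at 61.4 ± 2.98, and Actc1 was last at 4.73 ± 0.537. Among 18868 genes with a length, Actc1 ranked 10th by mean level per kilobase in si-Rbm22 and 7570th in si-Control.

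The make-up of the actin pool followed from these levels. Of the summed actin level per kilobase, Actc1 made up 53.4%, 49.9% and 44.2% in the si-Rbm22 libraries and 0.136%, 0.169% and 0.168% in the libraries labelled si-Control. Acta2 made up 12.5% ± 1.42 in si-Rbm22 and 37.8% ± 0.878 in si-Control (SD, n = 3 each). The 4 muscle actins together held 62.2% ± 3.72 in si-Rbm22 and 42.6% ± 0.706 in si-Control. The largest part of this was Actc1 in si-Rbm22 and Acta2 in si-Control. Since myofibroblasts also make Acta2, the si-Control share cannot be assigned to muscle cells. All 6 actins summed to 4565 ± 310.4 CPM per kilobase in si-Rbm22 and 3001 ± 16.9 in si-Control. These shares are descriptions of chosen genes and were given no test.

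Among the tropomyosins, per kilobase, Tpm1 led in si-Rbm22 at 842.2 ± 100.5 CPM per kilobase, before Tpm4 at 316.8 ± 41.3, Tpm3 at 45.1 ± 2.82 and Tpm2 at 44.5 ± 3.70. The last pair overlapped with merged exons but not with the longest transcript (4.48% to 5.52% of the tropomyosin sum for Tpm3, 2.30% to 2.90% for Tpm2). In the libraries labelled si-Control, Tpm4 led at 416.1 ± 15.6, followed by Tpm1 at 129.0 ± 2.48, Tpm2 at 113.3 ± 6.45 and Tpm3 at 49.7 ± 0.546 (SD, n = 3 each). Tpm1 therefore made up 69.6%, 70.7% and 61.6% of the summed level in the si-Rbm22 libraries and 18.0%, 18.8% and 18.0% in those labelled si-Control. The share of Tpm4 was 25.5% ± 4.26 in si-Rbm22 and 58.8% ± 1.43 in si-Control. These shares depend on the length used. With the longest transcript Tpm4 held 13.8% in si-Rbm22 and 43.1% in si-Control, and with reads not divided by length 10.8% and 38.4%. Tpm1 held 78.8% in si-Rbm22 and 29.0% in si-Control with the longest transcript, and 83.1% and 35.1% with reads alone, so Tpm4 led Tpm1 in si-Control under each length.

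**Figure D3:**
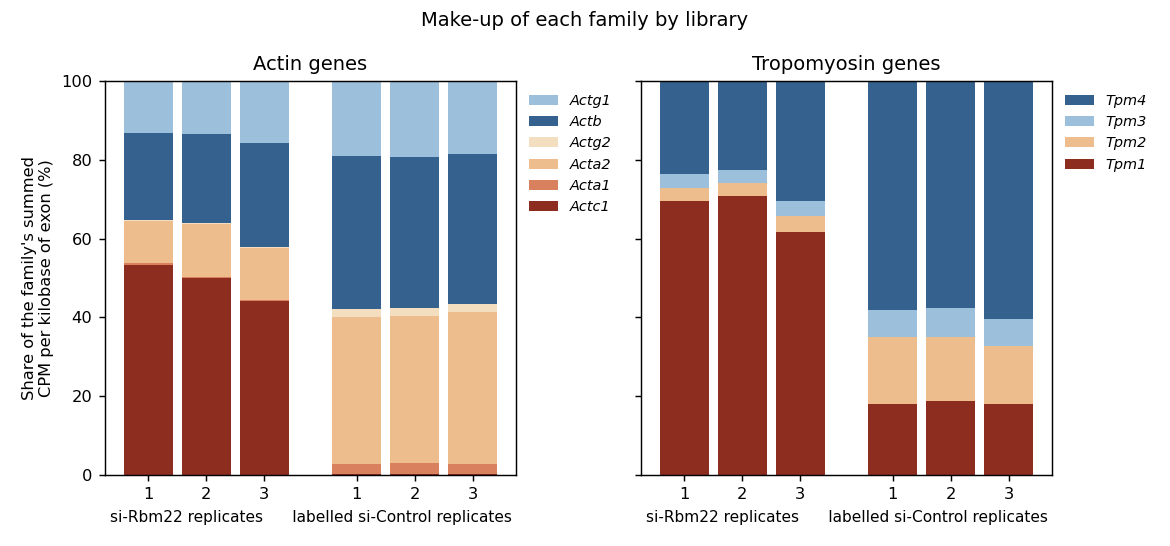
Share (%) of each gene in the summed CPM per kilobase of exon of its family, with a bar for each library; si-Rbm22 replicates 1 to 3 on the left and replicates 1 to 3 labelled si-Control on the right of each panel. Actc1 (44.2% to 53.4%) and Tpm1 (61.6% to 70.7%), both in dark red, take the largest share of each si-Rbm22 bar, and in the other libraries Acta2 and Actb together, and Tpm4, take the most.

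Libraries of si-Rbm22 also differed among themselves. Replicate 3 had the lowest Actc1, Acta1 and Tpm1 levels of its group and the highest Actb, Actg1, Tpm2, Tpm3 and Tpm4 levels. Its summed cardiomyocyte marker level was the lowest as well, at 23320 CPM, against 34750 CPM in replicate 1 and 36790 CPM in replicate 2. Leaving it out gave log2 fold changes of 9.0 for Actc1, 2.78 for Tpm1 and −2.19 for Acta1, with the direction unchanged for each of the 10 genes. Within si-Rbm22 the coefficient of variation was 14.7% for Actc1 and 11.9% for Tpm1, against 4.63% for Actb and 4.43% for Actg1.

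Gene counts of close relatives depend on how reads that match several places were counted, which is not given in the sources used here. Coding sequences of the 6 actins were 81.5% to 88.7% identical in pairs, the closest pair being Actb and Actg1. Nevertheless, no window of 100 bases in the annotated transcripts of Actc1, Acta1, Acta2, Actg2, Tpm1 or Tpm2 occurred in a transcript of another gene. The share of such windows found elsewhere was 29.9% for Actg1, mainly in Gm12715 and Gm8399, 15.8% for Tpm3, all in Tpm3-rs7, 7.37% for Tpm4, in Gm7809, and 0.644% for Actb. With windows of 50 bases the shares were 37.4% for Actg1, 23.2% for Tpm3, 11.7% for Tpm4, 9.12% for Actb, 2.02% for Acta1 and 0.326% for Acta2, and 0 for Actc1, Actg2, Tpm1 and Tpm2. Read length is not given in the sources used here, so levels of Actg1, Tpm3, Tpm4 and Actb are uncertain. Tpm4 also shares 134 exonic bases with the antisense gene Gm26586, and without a known strand setting reads there cannot be told apart; Actg1 contains 147 exonic bases of the miRNA genes Gm23419 and Mir6935.

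Serum response factor binds the CArG box, a motif known from muscle actin promoters, with myocardin and its relatives as coactivators. RefSeq promoter sequences (GRCm38.p6) were matched for 8 of the 10 genes, and those of Actb and Actg2 were not examined. A CArG box was searched as CC, any 6 of A or T, GG, on both strands. The 250 bases before the RefSeq start held one in 3 of the 8, Actc1, Acta1 and Actg1. Of 32851 mouse promoter windows of the same length, 1.47% held such a box. Boxes that depart from this pattern were not searched for, so a promoter without a match may still hold a variant. These 3 promoters are shown because they carry the same motif while their genes rose strongly, fell and barely moved. Capitals mark the box. Bases that GENCODE holds as exon are left off the 3′ end, and each is given 5′ to 3′ on the minus strand (Actc1, chr2:114052888-114053125, Acta1, chr8:123894776-123895025, and Actg1, chr11:120348543-120348745). The Actc1 stretch lies inside the GENCODE span of its gene, whose 5′ end at 114053548 is upstream of the RefSeq start.
Actc1: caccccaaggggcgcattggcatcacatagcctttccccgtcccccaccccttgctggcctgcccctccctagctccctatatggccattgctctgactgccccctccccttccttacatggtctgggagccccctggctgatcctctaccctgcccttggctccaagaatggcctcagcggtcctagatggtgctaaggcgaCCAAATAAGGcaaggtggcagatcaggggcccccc
Acta1: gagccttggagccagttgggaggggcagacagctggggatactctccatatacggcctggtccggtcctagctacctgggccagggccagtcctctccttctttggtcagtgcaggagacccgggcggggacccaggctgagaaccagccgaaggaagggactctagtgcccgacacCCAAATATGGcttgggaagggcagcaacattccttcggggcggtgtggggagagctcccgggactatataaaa
Actg1: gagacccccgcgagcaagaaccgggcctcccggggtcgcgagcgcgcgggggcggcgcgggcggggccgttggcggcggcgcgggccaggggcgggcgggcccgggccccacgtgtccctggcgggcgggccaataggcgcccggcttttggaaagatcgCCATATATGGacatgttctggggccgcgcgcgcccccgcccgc

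The first base of the box lay 47 bases before the RefSeq start in Actc1, 73 in Acta1 and 90 in Actg1. GENCODE places the 5′ ends of these genes elsewhere, so the distances hold for the RefSeq starts only. Beside this shared motif stood log2 fold changes of 8.89 for Actc1, −2.41 for Acta1 and 0.18 for Actg1. The E-box CANNTG was found in 6 of the 8 promoters and in 66.2% of all windows, and CATTCC, the core of the TEAD-bound muscle element, in Acta1, Acta2 and Tpm1 and in 12.6% of all windows, both on either strand. A match is a description of the sequence and not a bound site.

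Other genes of actin filament assembly and turnover were taken from 8 lists. Over them, 70 genes were tested, of which 30 rose and 27 fell, close to the 43.1% higher and 38.9% lower among all genes. Of serum response factor and 5 coactivators, 4 genes rose and 1 fell in si-Rbm22. Fhl2, a LIM protein of heart muscle, rose to 469.3 ± 70.3 CPM in si-Rbm22 against 78.3 ± 2.71 CPM in si-Control (a log2 fold change of 2.58, SE 0.101, edgeR adjusted p = 5.73e-10). Abra, a muscle activator of this pathway, rose by 5.52 (SE 0.370). Mrtfa, the actin-sensing coactivator, fell by 1.57 (SE 0.067), and its relative Mrtfb rose by 0.44 (SE 0.073). Srf itself, named like Mrtfb after its values were seen, was at 98.7 ± 6.42 CPM in si-Rbm22 and 95.1 ± 4.91 CPM in si-Control and did not pass. Myocd, myocardin, named here after its values were seen, had 3216, 3259 and 2299 reads in si-Rbm22 and no read in any si-Control library. Set against a floor of 3 counts over that group, its level was at least 2855-fold higher.

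Genes that nucleate actin filaments moved in both directions, as did all genes tested (43.1% higher and 38.9% lower). The same shares of all genes stand beside the counts of each list below. Among 16 formins and leiomodins, 7 rose and 8 fell. Fmnl3 fell to 35.2 ± 1.57 CPM in si-Rbm22 against 250.6 ± 10.4 CPM in si-Control, Fmnl2 fell by 3.36 on the log2 scale (SE 0.078) and Fhod1 fell by 1.94 (SE 0.083). A pair of muscle members, named after their values were seen, rose. Lmod2, the leiomodin of heart thin filaments, was at 129.6 ± 21.0 CPM in si-Rbm22 against 2.09 ± 0.309 CPM in si-Control, and Fhod3, the sarcomeric formin, at 257.1 ± 43.2 CPM against 63.4 ± 1.86 CPM. The Arp2/3 complex, which starts branches, and its activators had 4 higher and 5 lower of 13. Arpc1b, a subunit, fell by 1.08 (SE 0.056), Wasf2, an activator, fell by 0.93 (SE 0.061), and Wasl, which encodes N-WASP, rose by 0.99 (SE 0.062).

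Of 10 capping genes, 5 rose and 3 fell. Tmod1, the tropomodulin that caps the pointed end of the thin filament and binds tropomyosin, had 274.5, 262.8 and 208.2 CPM in si-Rbm22 and 8.75, 11.02 and 9.45 CPM in the other group (a log2 fold change of 4.67, SE 0.127, edgeR adjusted p = 6.39e-11). Capza1, an alpha subunit of the barbed-end capping protein, rose by 1.25 (SE 0.060), and Eps8, which caps barbed ends outside the sarcomere, fell by 0.95 (SE 0.059). Capza2, another alpha subunit gene, named after its values were seen, was at 205.6 ± 8.45 CPM in si-Rbm22 and 194.7 ± 6.33 CPM in si-Control and did not pass. Filament disassembly genes were 4 higher and 3 lower of 8. Cap2, a cyclase-associated protein of striated muscle, rose to 189.8 ± 31.1 CPM in si-Rbm22 against 1.15 ± 0.233 CPM in si-Control. Dstn, destrin, rose by 1.17 (SE 0.061), and the severing protein gene Gsn, gelsolin, fell to 186.4 ± 4.05 CPM in si-Rbm22 against 1001 ± 31.0 CPM in si-Control.

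Monomer-binding genes were 1 higher and 2 lower of 4. The thymosin gene Tmsb10 fell by 1.53 (SE 0.064) and the profilin gene Pfn1 fell by 0.48 (SE 0.060), and Pfn2 rose by 0.47 (SE 0.074). Side-binding regulators were 4 higher and 1 lower of 6 tested, Tagln3 having too few reads. Tagln, transgelin, rose to 968.6 ± 94.4 CPM in si-Rbm22 against 115.8 ± 5.99 CPM in si-Control, in the direction opposite to Acta2, its usual companion in smooth muscle. Caldesmon, Cald1, rose by 0.66 (SE 0.070), and calponin 3, Cnn3, fell by 2.28 (SE 0.074). The chaperonin CCT, which folds new actin, had 1 subunit gene higher and 4 lower of 7, and those 4 differed little, with log2 fold changes of −0.39 for Cct2, −0.46 for Cct4 and −0.37 for Cct7 among them.

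Over the 8 lists, the median log2 fold change of 0.05 equalled that of all genes tested. Their median absolute log2 change was 0.67, against 0.82 for all genes.

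**Figure D4:**
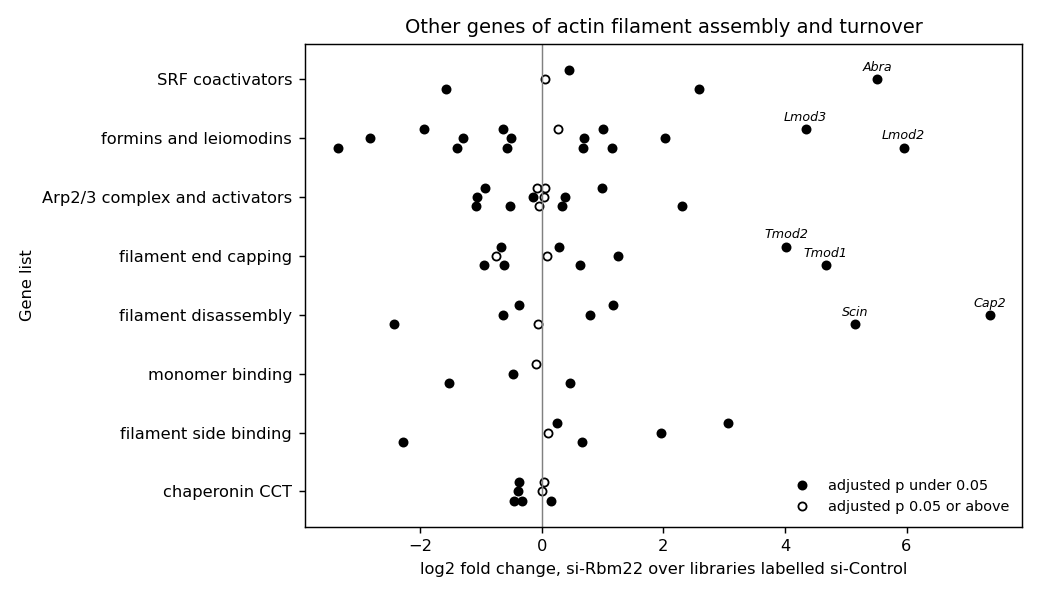
Log2 fold change (si-Rbm22 over libraries labelled si-Control) of each tested gene in 8 lists of actin filament assembly and turnover; filled points passed at an adjusted p under 0.05, points are set apart vertically only for legibility, and Myocd, without reads in si-Control, is left out. At the right stand Lmod2, Tmod1 and Cap2, and also Abra, Lmod3, Scin (5.15) and Tmod2 (4.02). In the same lists Lmod1 (0.27) and Tmod4 (−0.75) did not pass. CCT subunits lie between −0.46 and 0.15.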

How the data were processed

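Counts of reads per Ensembl gene in 6 libraries were used as the authors deposited them, not normalized; per the submitters' processing notes fastp, HISAT2, HTSeq, DESeq2 and GRCm38 were used; versions, roles, annotation release and strand setting are not stated there. No column was left unused. Of 18951 identifiers, 18868 matched GENCODE M21 (GRCm38), which gave symbols, positions and exon lengths.

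Groups came from sample titles. Replicate pairs differed beyond sampling noise (chi-square per degree of freedom 4.52 to 30.9), so each library was 1 sample. edgeR 4.0.16 in R 4.3.3 (TMM, filterByExpr, robust quasi-likelihood fit, group as the only term) tested 14621 genes, with Benjamini-Hochberg adjustment over all of them. The SE was taken as the size of the log2 change over the root of its F statistic, with si-Rbm22 on top of each ratio. Levels per kilobase divide TMM-scaled CPM by merged exon length. Precision is limited by 3 libraries a group and by counting error, which is small at these depths. In counts simulated from si-Control means, 13011 genes were tested and few were changed, with random signs (67 at 1.5-fold, 67 at 2-fold, 66 at 4-fold). There, 95.5% of genes changed 2-fold and 77.6% of those changed 1.5-fold were recovered. The real comparison called 82% of genes, so these rates need not hold for it.

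The 10 genes and all lists were chosen with earlier results of these data known. Named beside the 10 were, in each list, the 3 genes of smallest p, and for each of the 10 the 2 genes nearest in pattern. Srf, Mrtfb, Myocd, Lmod2, Fhod3 and Capza2 were chosen after their values were seen. Alternatives were RLE, upper-quartile and no scaling, other filters on low counts, each library left out, a replicate block, DESeq2 1.42.0, and other gene lengths. The CCT gene Cct6a was not analysed here.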

Additional observations from a re-analysis of the deposited data

How the results depend on the processing

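All 13 alternative fits kept the direction of each of the 10 genes. Calls numbered 7 to 10 of the 10 genes against 9, and 8772 to 13057 of all genes against 11983. The calls that changed were those of Actb, Actg1 and Tpm3, as given above, and with DESeq2 that of Tpm3 (adjusted p = 0.0559). The no-filter setting moved the median log2 fold change of all genes to 0.14, against 0.05. Calls in the 8 lists numbered 49 to 58 against 57. The muscle actin share was 51.7% in si-Rbm22 and 37.1% in si-Control with reads not divided by length, and 56.6% and 36.7% with the longest transcript. Tpm1 and Tpm2 together held 70.9% in si-Rbm22 and 34.2% in si-Control, 85.04% and 48.9% with reads not divided by length, and 81.3% and 44.2% with the longest transcript. These shares differ because the lengths do. No sign of pairing by replicate number was seen: deviations from the group means correlated at −0.016, 0.007 and 0.008 between libraries of the same number. With 3 libraries a group and markers that differ between groups, this cannot show that there was no pairing. With the number as a block, 11945 genes and 9 of the 10 were called. The libraries of doubtful content are all 3 labelled si-Control, so no comparison without them exists.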

Other observations

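Nearness of pattern was measured as the root mean square distance between log2 CPM profiles, each centred on its own mean over the 6 libraries, among 11160 genes averaging 5 CPM or more. The profile nearest to Actc1 was that of Trim63, a muscle ubiquitin ligase (distance 0.097 log2 units, log2 fold change 8.91), then Zfp521 (0.111), which has no reads in si-Control, so that its distance rests on the prior count of 2. Nearest to Tpm1 were Gpr146 (0.044) and Pam (0.057), to Acta1 Pcdhb20 (0.083) and Vps37d (0.136), and to Actg2 Clec2d (0.046) and Pltp (0.080). Acta2 was nearest to Slc25a1 (0.027) and Ccng2 (0.041), and Tpm2 to Cdc42ep1 (0.020) and Fhl3 (0.023). Profiles within 0.1 log2 units were few for the genes that moved most, 1 for Actc1 and 13 for Tpm1, and many for those that moved least, 1067 for Actb, 998 for Actg1, 927 for Tpm3 and 319 for Tpm4. The nearest of these were Psme3 (0.013) and Rnmt (0.014) for Actb, Vasn (0.023) and Ptbp1 (0.025) for Actg1, Slc39a11 (0.010) and Myc (0.017) for Tpm3, and Rbbp8 (0.029) and Sf3b6 (0.034) for Tpm4. With 2 groups of 3 libraries, such a distance mostly reflects the size of the group difference. The copy gene Tpm3-rs7, which shares windows with Tpm3, had 720, 701 and 845 reads in si-Rbm22 and 953, 872 and 856 in the libraries labelled si-Control.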
